A study of Mus musculus with 2 samples.

Results

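The serum amyloid A genes Saa1, Saa2 and Saa3 were followed spot by spot in 2 Visium sections of mouse lung. They are 3 of the 32285 features counted and were chosen on measured values of these sections, for the rise of Saa3 over the control lung, so that rise and the other levels are given as a description, with no test. Visium captures polyadenylated RNA of a tissue section on spots at a pitch of 100 µm, and a spot holds RNA of several cells. The control section came from the lung of an untreated, tumour-free mouse. The metastatic section came from a tumour-bearing mouse given 1000000 4T1 cells in the mammary fat pad and killed after 21 to 23 days. Mice were female Balb/c, inoculated at 6 to 8 weeks of age, with no age given separately for the control mouse. 4T1 is a mouse mammary carcinoma line that seeds lung metastases from the fat pad, so every metastatic value here belongs to this 1 transplanted line. With 1 section per condition, condition, animal, section and library cannot be told apart.

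Serum amyloid A proteins are small apolipoproteins of the acute phase response. Saa1 and Saa2 are produced mainly by hepatocytes under interleukin-1, interleukin-6 and tumour necrosis factor, and circulate on high density lipoprotein. Saa3 is the form best known outside the liver in mice, in macrophages, fibroblasts, adipocytes and epithelium, and serum amyloid A is known to attract neutrophils and monocytes and to signal through toll-like and formyl peptide receptors. In the lung it has been studied in inflammation and in the conditioning of tissue for metastasis.

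The genes lie together on mouse chromosome 7 (GRCm38, the build of the deposited counts, mm10). Saa3 spans chr7:46711998-46719615 and Saa1 chr7:46740497-46743181, both on the minus strand, and Saa2 spans chr7:46751833-46754313 on the plus strand, 42316 bases from end to end. Saa1 and Saa2 are transcribed away from each other from starts 8853 bases apart. The 250 bases before the annotated starts are shown because all 3 members were higher in the metastatic than in the control section. Saa1 and Saa2, unlike Saa3, are also near copies of each other there. They were read from RefSeq's promoter table (GRCm38.p6) at chr7:46742981-46743230 for Saa1, chr7:46751583-46751832 for Saa2 and chr7:46715677-46715926 for Saa3, 5′ to 3′ on the gene's strand. The Saa3 window lies inside the longest Saa3 gene model. For Saa1 the start used, also for the distance to Saa2, was chr7:46742980. It lies inside the Saa1 span given above, and so does the part of the Saa1 window up to 46743181. Capitals mark the match to the C/EBP pattern TTGCNNAA, searched on both strands.
Saa1: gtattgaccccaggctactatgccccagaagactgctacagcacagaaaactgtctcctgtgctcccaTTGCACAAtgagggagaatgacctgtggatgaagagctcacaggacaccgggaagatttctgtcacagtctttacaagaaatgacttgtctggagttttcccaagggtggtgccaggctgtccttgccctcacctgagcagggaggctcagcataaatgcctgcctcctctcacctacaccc
Saa2: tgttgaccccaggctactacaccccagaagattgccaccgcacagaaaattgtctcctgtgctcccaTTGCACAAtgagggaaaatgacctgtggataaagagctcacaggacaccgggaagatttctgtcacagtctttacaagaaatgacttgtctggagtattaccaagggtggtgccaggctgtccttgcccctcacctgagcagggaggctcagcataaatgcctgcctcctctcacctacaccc
Saa3: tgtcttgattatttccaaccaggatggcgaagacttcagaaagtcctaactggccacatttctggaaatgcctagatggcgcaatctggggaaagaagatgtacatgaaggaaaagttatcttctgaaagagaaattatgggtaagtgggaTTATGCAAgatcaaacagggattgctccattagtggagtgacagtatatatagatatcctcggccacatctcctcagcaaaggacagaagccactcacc
The pattern occurred 1 time in each window, 182 to 175 bases before the start in Saa1, 183 to 176 in Saa2 and, on the opposite strand, 99 to 92 in Saa3. It was present in 9.55% of 27025 promoters. Neither a STAT pattern, TTCNNNGAA, nor the κB pattern was found in the 3 windows, and these occurred in 7.18% and 3.75% of all promoters. Saa1 and Saa2 were identical over 94.8% of the aligned promoter columns and 93.9% of 609 transcript columns, whereas Saa1 and Saa3 were identical over 52.5% and 64.5%. No window of 90 bases, the length of the transcript read, from the last 500 bases of the Saa1 transcript was found exactly in Saa2. How reads shared by near copies were assigned is not given in the sources used here, and Balb/c transcripts may differ from the reference, so the split of counts between Saa1 and Saa2 is uncertain.

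The control section held 1888 spots over tissue and 20329126 counts (median of 9643.5 per spot), and the metastatic section 1110 spots and 14657881 counts (median of 11334.5). Scgb1a1, a club cell secretoglobin, took 15.2% and 18.4% of all counts. The sections shared 858 barcodes, which are array positions and not cells. Levels are summed counts of a gene per 10000 summed counts of the spots, with exact 95% intervals that cover counting error only. No p-value is given, since spots of 1 section do not replicate a condition.

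Spots were placed by their other genes, without the Saa genes. The metastasis core was the 155-spot cluster of the metastatic section with the highest score for the cycling and 4T1 lists, set by the cycling genes. The cycling list reached 7.04 per 10000 in the core, 0.470 in the far lung and 0.758 in the control lung. The epithelial list meant to mark 4T1 cells (10 genes, among them Krt8, Krt18 and Epcam) was not higher there, at 4.98 in the core, 7.76 in the far lung and 11.1 in the control lung. The core was therefore chosen by cycling genes, so their level there, and that of Top2a from the same list, follows from the choice. Described afterwards, Mmp3, Ccl7 and Myc were among its leading genes. Lung genes were low, with the AT2 list at 64.0 per 10000 against 217 in the far lung. The margin reached 200 µm from a core spot and far lung began beyond 500 µm, with an intermediate zone between. The core fell into 4 parts: a mass of 123 spots that filled one end of the tissue, a mass of 29 spots embedded in the lung, 2 spots on the pleural side and 1 spot off the main tissue.

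Saa3 carried nearly all serum amyloid A counts. In the control section it had 109 counts in 68 of 1888 spots (3.60%, 2.81 to 4.54), a level of 0.0536 (0.0440 to 0.0647). In the metastatic section it had 6042 counts in 491 of 1110 spots (44.2%, 41.3 to 47.2), a level of 4.12 (4.02 to 4.23). Saa1 had 2 counts in the control and 70 in the metastatic section, and Saa2 0 and 26. Saa3 thus made up 98.4% of the 6138 member counts of the metastatic section, Saa1 1.14% and Saa2 0.424%. The liver-type members were present in the metastatic lung but close to the detection limit, and the closely linked Saa4 had 1 count in the control lung, 1 in the far lung and 0 in core and margin.

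The level of Saa3 was highest in the metastasis core and lower in the margin and beyond, and the far lung was still well above the control lung. It was 17.9 per 10000 in the core (17.3 to 18.4, 4431 counts), 3.13 in the margin (2.85 to 3.44, 105 spots), 1.28 in the intermediate zone (1.14 to 1.43, 197 spots) and 1.03 in the far lung (0.960 to 1.10, 853 counts in 653 spots). The intervals of these zones did not overlap, but 1 spot held 103 of the 316 intermediate counts. In spots with no count of the mesothelial list (described below) the levels were 5.69 in the core and 1.65 in the margin. There the intermediate zone (0.526, 0.429 to 0.638) and the far lung (0.527, 0.476 to 0.582) did not differ. The core level was 17.4 times the far lung level (16.1 to 18.7) and 333 times the control level (275 to 406). The margin was 58.4 times the control level (47.3 to 72.7), the intermediate zone 23.9 times (19.2 to 30.0) and the far lung 19.2 times (15.7 to 23.6). The last ratio was 36.0 with spots thinned to 5000 counts (24.0 to 56.4), 29.1 as a mean over spots and 12.4 without edge spots. In bulk spots, fewer cells of a type and less RNA per cell cannot be told apart.

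Of 15717 genes with at least 10 counts, 1.95% were at least 2-fold higher in far lung than in control lung and 7.02% at least 2-fold lower. All 3 members were higher, and Saa3 ranked 27 by its log2 ratio. This contrast chose the members, so nothing is read from that count. Between core and far lung, 24.1% of 14157 genes were at least 2-fold higher and 19.3% lower, and again all 3 members were higher, with Saa3 at rank 113. A rise of that kind was common among genes in the core, so nothing is read from this count either.

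**Figure D1:**
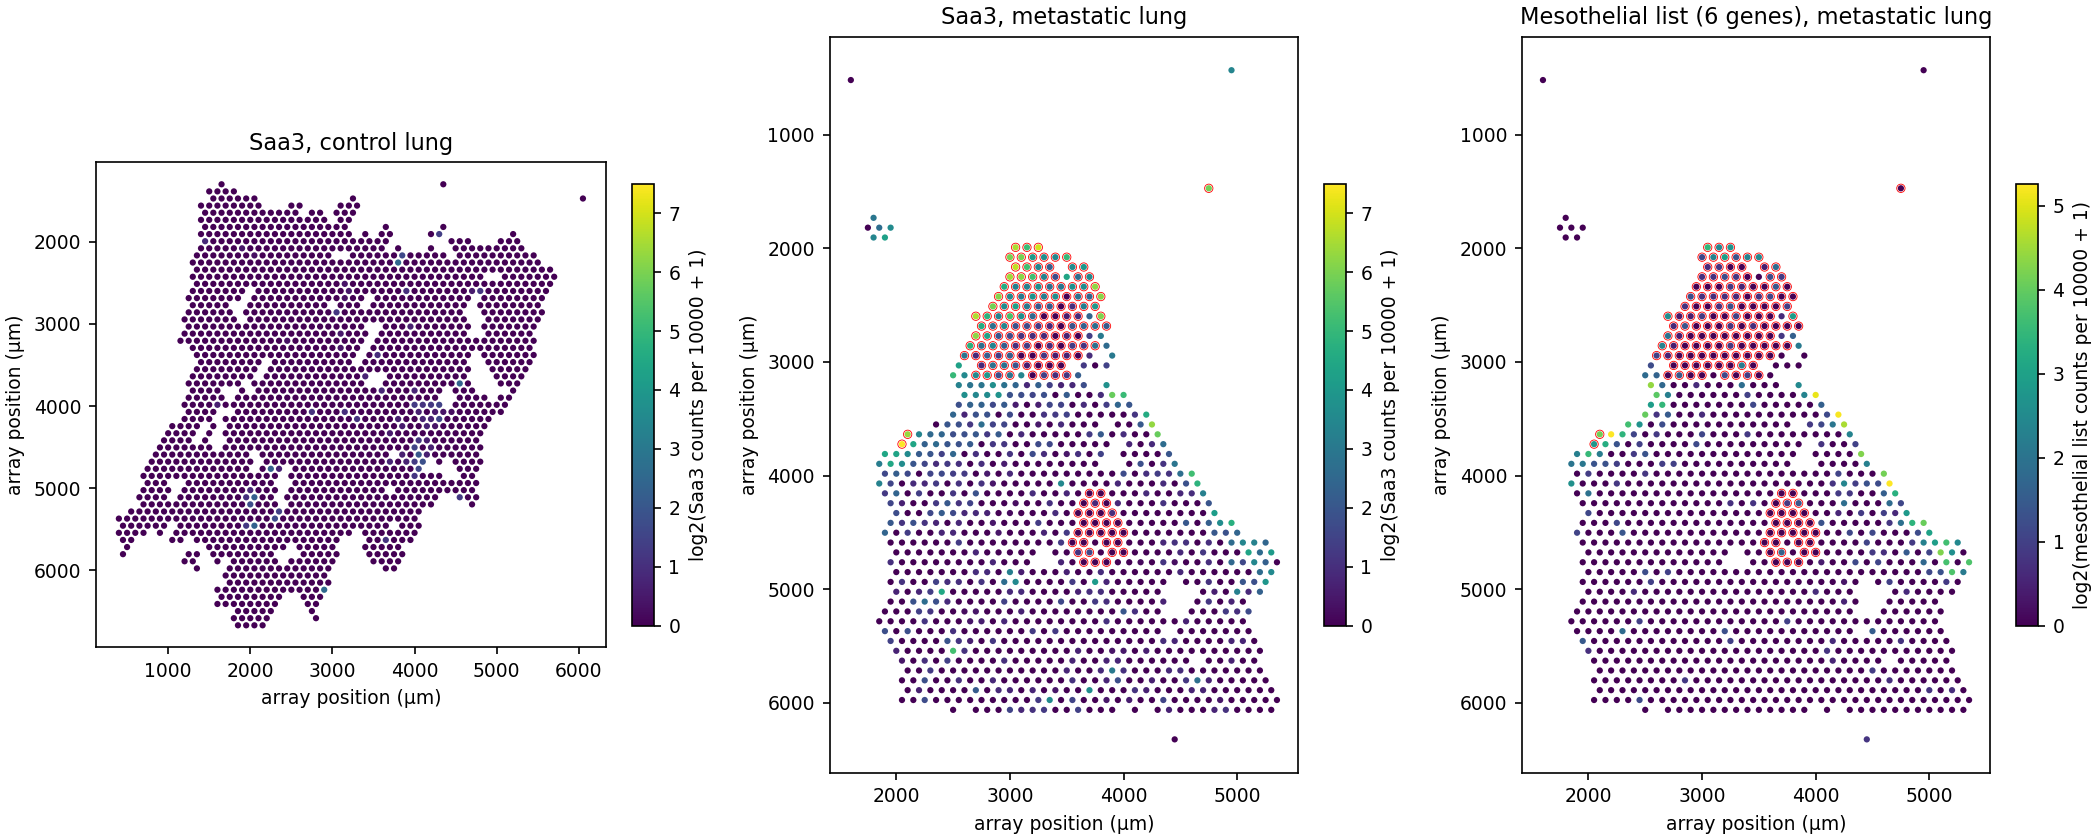
Spots of the control section (left) and the metastatic section (middle) coloured by log2(Saa3 counts per 10000 + 1) on the same scale, and the metastatic section coloured by the mesothelial list (right), with array position in µm on both axes and core spots ringed in red. Saa3 is high in the upper core mass and along the flanks of the lung where the mesothelial list is also high, and it is near 0 in the 29-spot mass and in most of the control section.

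The counts were concentrated in few spots. In the core, spots ranged from 0 to 179.7 per 10000 with a median of 3.26 and quartiles of 0 and 11.2. The 10 core spots with most counts held 46.0% of the core's Saa3, and the highest count in 1 spot was 265. In the far lung the median spot had none and the highest had 76.4 per 10000, with 43.6% of counts in 10 spots. In the control lung the highest count of any spot was 11, and 40.4% of counts lay in 10 spots.

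The 2 masses of the core differed strongly in Saa3. The 123-spot mass had 4126 counts, a level of 18.1 (17.5 to 18.6). The 29-spot mass had 4 counts, each in a spot of its own, a level of 0.227 (0.0618 to 0.581). The ratio was 79.7 (31.1 to 293), and the level of the smaller mass was 0.221 times that of the far lung (0.0600 to 0.567), the reverse of the core as a whole. Both masses held cycling genes, at 7.14 and 5.84 per 10000, and Mki67, a proliferation marker, stood at 1.06 and 1.64. Myc was 2.75 and 1.70, and Ccl2, a monocyte-attracting chemokine, 2.60 and 1.25. Mmp3, a stromal matrix metalloproteinase, was 2.17 and 0.340. Fcna, which encodes ficolin A, and Csn3, a milk casein, had 231 and 104 counts in the larger mass and 0 in the smaller.

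Depth, position and neighbouring cells differed between the masses as well. Median spot totals were 17232 and 5515. The larger mass had 36 spots at the tissue edge, with fewer than 6 neighbours over tissue, and the smaller had 0. The mesothelial list stood at 0.911 and 0.227, the T and NK cell list at 2.20 and 6.80 and the B cell list at 0.916 and 3.86. With edge spots and spots with a mesothelial count left out, the larger mass still had 4.34 per 10000 (3.92 to 4.80, 56 spots) against 0.136 in the smaller mass without mesothelial counts (0.0165 to 0.492, 2 counts in 26 spots). That ratio was 31.9 (8.77 to 264). The part of depth and of lymphocyte content in this difference was not tested.

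The margin of the larger mass was also higher in Saa3 than that of the smaller. Within 200 µm of the larger mass Saa3 was 5.83 (5.17 to 6.56) with counts in 35 of 38 spots. Within 200 µm of the smaller it was 0.501 (0.360 to 0.680) with counts in 13 of 56 spots, and 1 spot held 26 of the 41 counts. The ratio was 11.6 (8.37 to 16.6), and the margin of the smaller mass stood below the far lung level of 1.03. The smaller mass and its margin did not differ beyond counting error (0.453, 0.118 to 1.25). The 2 core spots on the pleural side had 278 counts (142 per 10000, 126 to 160), among them the spot highest per 10000, and the spot off the main tissue had 23. With the 123-spot mass as the only core, core over far lung was 17.6.

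**Figure D2:**
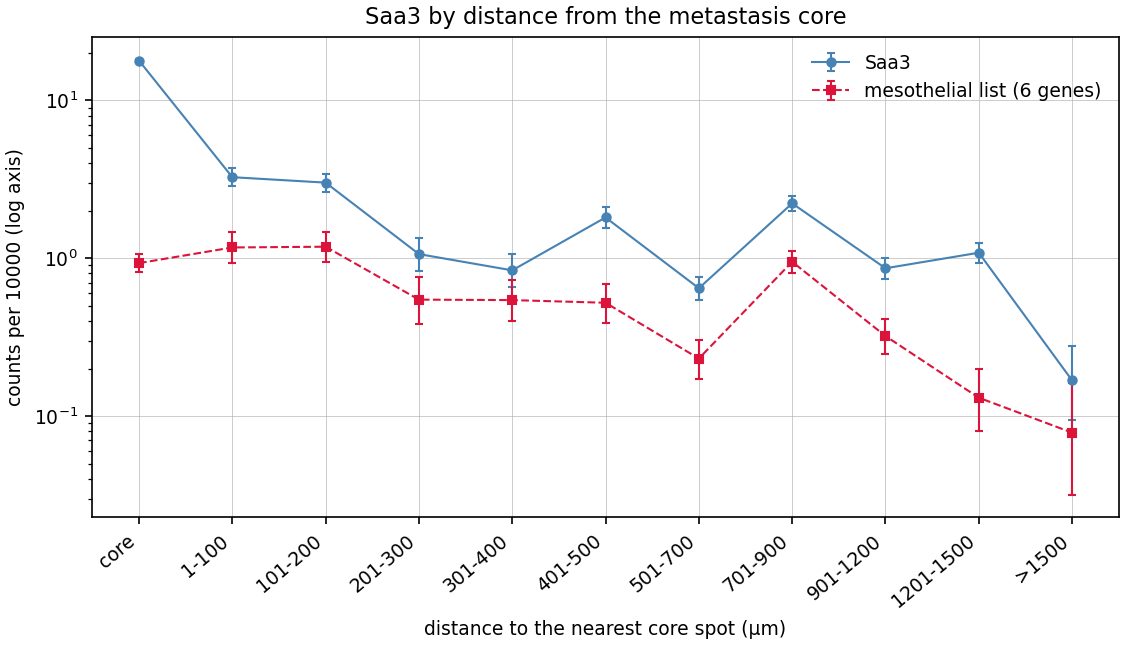
Saa3 (solid) and the mesothelial list of 6 genes (dashed) in counts per 10000 on a log axis against the distance in µm to the nearest core spot, with exact 95% Poisson intervals. Saa3 falls from 17.9 in the core to 3.01 at 101 to 200 µm, does not fall steadily beyond, and has a further maximum of 2.22 at 701 to 900 µm where the mesothelial list rises to 0.949.

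Beyond the margin the decline with distance was uneven. Saa3 was 3.26 within 100 µm of the core, 3.01 from 101 to 200 µm, 1.06 from 201 to 300 µm and 0.837 from 301 to 400 µm. It was 1.81 from 401 to 500 µm, where 1 spot held 103 of 177 counts, and 2.22 from 701 to 900 µm, where 1 spot also held 103. The level ended at 0.168 (0.0941 to 0.277) beyond 1500 µm. There, 15 counts lay in 14 of 72 spots, none above 2, and the interval still lay above that of the control section. The mesothelial list had a maximum at the same distance, at 0.231 from 501 to 700 µm, 0.949 from 701 to 900 µm and 0.0785 beyond 1500 µm. From 1201 to 1500 µm it was low (0.131) while Saa3 stood at 1.08.

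Tissue classes outside the core were set by marker lists over both sections together. Airway spots were the top 10% for club and ciliated genes, fibroblast-rich spots the top 10% for fibroblast genes such as Col1a1 and Dcn, and alveolar spots those of the rest above the median for AT2 and AT1 genes. In the control lung Saa3 was low everywhere, and its order was airway (0.0907, 0.0617 to 0.129, 31 counts), fibroblast-rich (0.0339, 0.0136 to 0.0698, 7 counts) and alveolar (0.0249, 0.0159 to 0.0370, 24 counts). Airway exceeded alveolar spots 3.65-fold (2.07 to 6.49). Without the airway spot that held 11 counts, airway exceeded alveolar spots 2.39-fold (1.25 to 4.52) and did not differ from fibroblast-rich spots beyond counting error (1.76, 0.714 to 4.92). Fibroblast-rich and alveolar spots did not differ beyond counting error (1.36, 0.495 to 3.25). Spots in none of these classes stood at 0.0997 (0.0727 to 0.133), level with airway spots when all of those were kept.

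In the metastatic lung airway spots were the lowest of these 3 classes. Outside the core, fibroblast-rich spots had 15.5 per 10000 (13.9 to 17.3, 330 counts in 21 spots), alveolar spots 1.22 (1.09 to 1.37, 284 counts in 212 spots) and airway spots 0.137 (0.0949 to 0.192, 34 counts in 81 spots). Fibroblast-rich exceeded alveolar spots 12.7-fold (10.8 to 14.9), and airway spots had 0.112 times the alveolar level (0.0761 to 0.160). Airway spots were the deepest, with a median of 27217 counts against 10501.5 in alveolar spots, and 28.4% of them held at least 1 Saa3 count against 43.4% of alveolar spots. The airway ratio therefore also depends on how much of the spot total is airway RNA. Without Scgb1a1 and further abundant genes in the totals it was 0.226 (0.154 to 0.324).

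**Figure D3:**
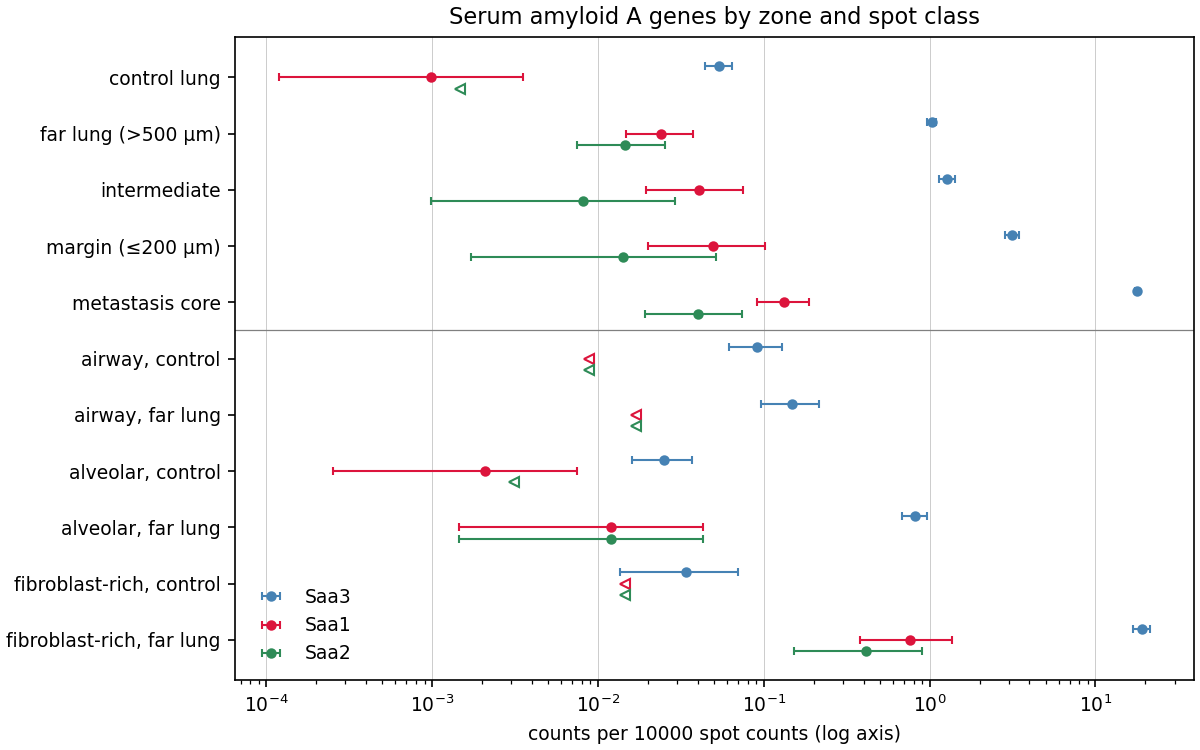
Levels of Saa3 (blue), Saa1 (red) and Saa2 (green) in counts per 10000 on a log axis, by zone (upper rows) and by spot class in control and far lung (lower rows), with exact 95% Poisson intervals. Open triangles mark the level that 3 counts would give where the count is 0. Saa3 is the highest of the 3 in every row, though in control fibroblast-rich spots the triangles lie inside its interval. Its alveolar and fibroblast-rich intervals separate between far and control lung, and its airway intervals overlap, with 11 of the 31 control airway counts in 1 spot.

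Class by class, the rise over the control lung was therefore unequal. In far alveolar spots Saa3 was 0.812 (0.681 to 0.960, 136 counts in 151 spots), 32.6 times the control alveolar level (21.0 to 52.6), and 86.8 times (40.7 to 221) without the 1% highest spots, which left 7 control counts. In far airway spots it was 0.148 (0.0966 to 0.217, 26 counts in 56 spots), 1.63 times the control airway level (0.929 to 2.84). Without the control airway spot that held 11 of the 31 counts, the ratio was 2.48 (1.33 to 4.69). The share of airway spots with Saa3 was 9.52% in the control (5.31 to 15.5) and 28.6% in the far lung (17.3 to 42.2), at median totals of 19247 and 28165. Thinned to 5000 counts a spot, 2 of 141 and 4 of 56 airway spots held Saa3, too few to order them. In far fibroblast-rich spots it was 19.0 (16.8 to 21.4, 275 counts in 14 spots), 561 times the control level, which rested on 7 counts (269 to 1409). Alveolar Saa3 was 4.82 in the margin (3.90 to 5.88, 19 spots), 1.16 in the intermediate zone (0.870 to 1.53, 42 spots) and 0.812 in the far lung. The fall from margin to intermediate zone was also present within alveolar spots.

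The fibroblast-rich level was carried by spots that also held mesothelial transcripts. Mesothelium is the cell layer that covers the lung surface, and its list held Msln, Upk3b, Upk1b, Wt1, Lrrn4 and Bnc1. Of the 21 fibroblast-rich spots outside the core, 12 had at least 5 mesothelial counts and held all 330 Saa3 counts (24.4 per 10000, 21.8 to 27.1). The other 9 had no mesothelial count and 0 Saa3 counts, which allows up to 0.390. The 18 spots with at least 5 mesothelial counts that were not fibroblast-rich had 13.6 (12.0 to 15.4). The mesothelial list stood at 11.0 in fibroblast-rich spots of the metastatic section and at 2.28 in those of the control section, and the fibroblast list at 47.4 and 47.9. With classes taken from clusters of both sections, the 31 fibroblast-rich spots of the metastatic section had less mesothelial RNA (0.0641) but also less fibroblast RNA (14.9) and more smooth muscle RNA (18.4) than fibroblast RNA. Their ratio to alveolar spots reversed to 0.142 (0.0446 to 0.349).

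Saa3 increased with mesothelial counts in every zone. In far lung it was 0.527 (0.476 to 0.582) in 570 spots with no mesothelial count, 1.50 in 54 spots with 1, 1.92 in 13 spots with 2 to 4 and 21.0 (18.8 to 23.3) in 16 spots with 5 or more. The last exceeded the first 39.8-fold (34.3 to 46.1), and all 16 held Saa3. In the core the same steps were 5.69, 14.5, 27.3 and 56.1, a ratio of 9.85 (9.01 to 10.8). In the control lung they were 0.0360, 0.0628, 0.0766 and 0.162, a ratio of 4.51 (2.65 to 7.49). Median spot totals in the core rose alongside, from 11639 without to 21377 with 5 or more mesothelial counts, and the fibroblast list rose from 6.69 to 23.4. In the far lung totals did not rise (11095 and 9164), and the fibroblast list rose from 7.30 to 45.3.

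**Figure D4:**
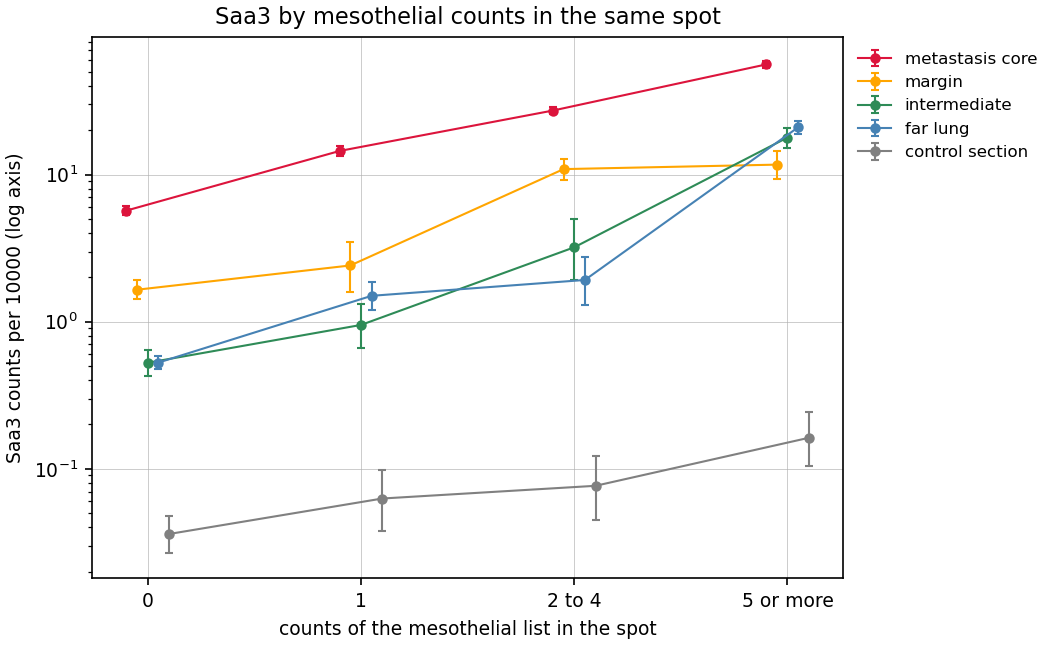
Saa3 in counts per 10000 on a log axis against the summed counts of 6 mesothelial genes in the same spot (0, 1, 2 to 4, 5 or more), 1 line per zone, with exact 95% Poisson intervals. Each line rises from left to right, and the control section lies below the far lung at every step, at 0.162 against 21.0 for 5 or more mesothelial counts.

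The mesothelial list stood at 0.931 per 10000 in the core, 1.18 in the margin, 0.535 in the intermediate zone and 0.352 in the far lung. It was higher in the control section (1.14) than in the far lung, with Msln at 1377 and 137 counts. In fibroblast-rich spots it was higher in the metastatic section, as given above. The part of mesothelial content in the rise of Saa3 was not tested. Among spots with at least 5 mesothelial counts, 122 in the control and 16 in the far lung, Saa3 was 129 times higher in the far lung (85.4 to 204). Among spots without any it was 14.6 times higher (10.9 to 20.1), from 0.0360 to 0.527. The rise was therefore present in spots with and without mesothelial counts, with the larger ratio in those with at least 5. In these the fibroblast list stood at 45.3 per 10000 in the far lung and 23.4 in the control, so the spots compared were not alike.

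Saa3 was also higher at the tissue edge of the metastatic section. At the edge, core spots had 38.0 (36.6 to 39.3, 39 spots) and other core spots 8.19 (7.76 to 8.63, 116 spots), a ratio of 4.64 (4.35 to 4.95). Far lung spots had 3.21 at the edge (2.91 to 3.54, 129 spots) and 0.631 away from it (0.574 to 0.693, 524 spots), a ratio of 5.09 (4.44 to 5.83). In the control section the edge ratio was 1.23 (0.782 to 1.90), no difference beyond counting error. The 471 far lung spots away from the edge with no mesothelial count kept 0.514 (0.460 to 0.572), 9.58 times the level of the whole control section (7.70 to 12.0). In the larger mass the same kind of spots had 4.34, which was 8.45 times the far lung value (7.28 to 9.82).

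Over all spots of the metastasis core together, Saa3 followed the mesothelial and fibroblast lists. Over 155 core spots Spearman's rho was 0.55 with the mesothelial list, 0.53 with the fibroblast list, 0.43 with the cycling list, 0.36 with the red blood cell list and 0.24 with the monocyte list. Fibroblast genes were split, from 0.61 for Col3a1 and 0.61 for Dcn to -0.11 for Lum, on 4 counts, and -0.21 for Dpt. The casein Csn3 reached 0.49. The 4T1 list, which was not higher in the core than in the lung, had -0.05. The correlation was -0.04 with neutrophils, -0.08 with interstitial macrophages (C1qa and others), -0.25 with T and NK cells and -0.40 with AT2 genes. The 25% of core spots richest in the mesothelial list had 36.5 Saa3 counts per 10000 and the rest 7.84, and for the fibroblast list the values were 31.8 and 11.7. The red blood cell list gave 36.4 and 11.4, a larger ratio than the fibroblast list (3.20 against 2.70), and the cycling list gave 27.4 and 13.2. For interstitial macrophage genes the ratio of the richest 25% to the rest was 1.47 (1.38 to 1.56), above 1 although rho was near 0, and for alveolar macrophage genes 2.62 (2.47 to 2.78). The spots share 1 section and 1 library, and they pool the larger and the smaller mass. These masses differed in Saa3, depth and mesothelial content, as given above, and the fibroblast list stood at 9.90 and 5.84 per 10000. No correlation was taken within a mass. Saa3 also followed the spot total (rho 0.59), the share of mitochondrial counts (0.62) and the number of neighbours over tissue (-0.52), and the part of these in the correlations was not tested.

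In the far lung, where 234 of 653 spots held Saa3, rank correlations were smaller. The correlation was 0.27 with the mesothelial list, 0.11 with fibroblasts, 0.11 with alveolar macrophages and 0.10 with interstitial macrophages, and -0.20 with club, -0.17 with smooth muscle and -0.15 with ciliated genes. In summed counts the macrophage and fibroblast ratios were not smaller than in the core. The 25% of far lung spots richest in interstitial macrophage genes had 2.43 and the rest 0.527, a ratio of 4.60 (4.00 to 5.30) against 1.47 in the core. For alveolar macrophage genes the ratio was 2.72 in the far lung and 2.62 in the core, and for fibroblast genes 3.75 and 2.70. For neutrophil genes it was 0.931 in the far lung (0.787 to 1.10), although the neutrophil list stood at 24.7 in the far lung against 2.15 in the control lung. In the 1888 control spots the mesothelial rho was 0.12, and no list exceeded it in size but endothelial genes (-0.13). With 68 spots holding a count, little can be read from the control values.

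**Figure D5:**
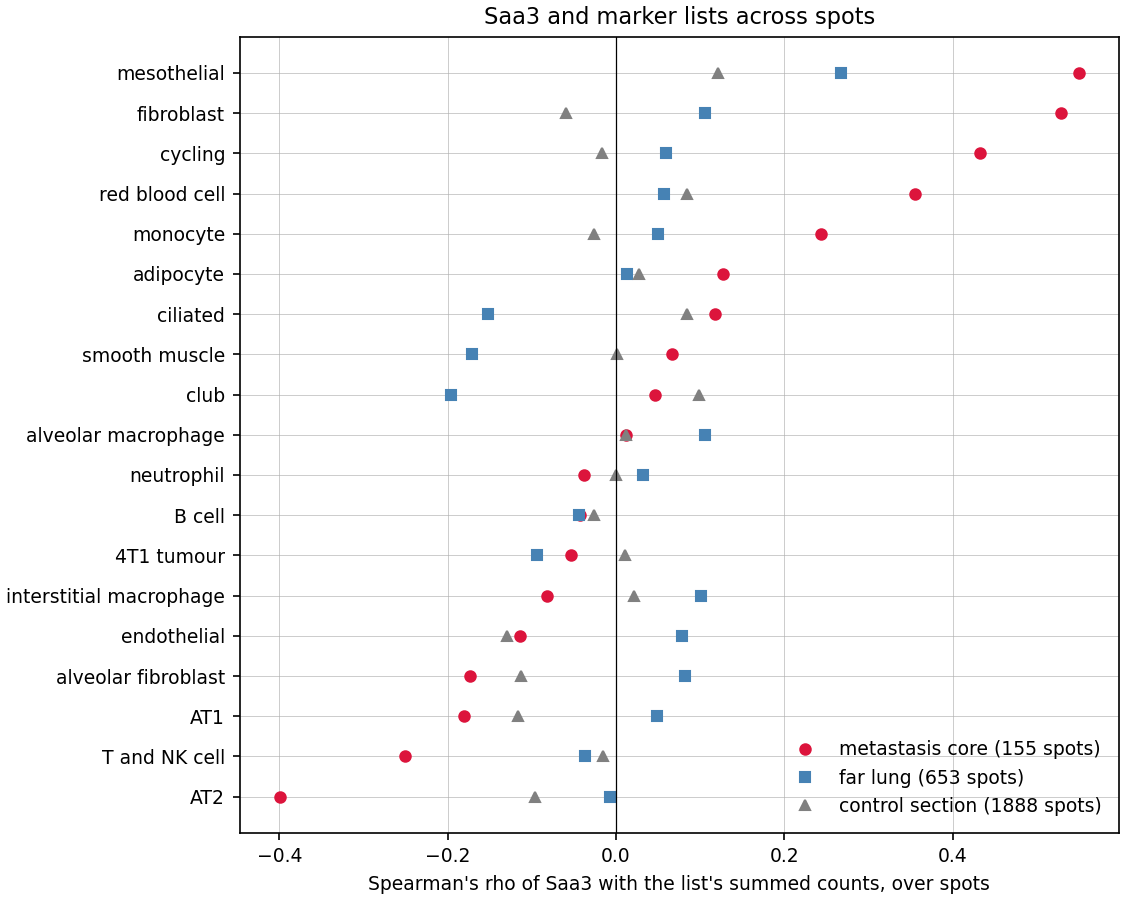
Spearman's rho over spots between Saa3 and the summed counts of each marker list, for the metastasis core (red circles), far lung (blue squares) and control section (grey triangles), with lists ordered by the core value. The mesothelial list is highest in all 3 regions (0.55, 0.27 and 0.12), and the fibroblast and cycling lists reach 0.53 and 0.43 in the core but 0.11 and 0.06 in the far lung.

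The single genes most like Saa3 were ranked by the same measure, among genes with at least 100 counts. In the core the 10 highest of 4217 were Lgals1 (0.76), Ccdc80 (0.70), Rpl39, Ptgis, Slpi, Rpl41, Rpl37a, Aldh1a2, mt-Co3 and Rplp1 (0.63). Lgals1 encodes galectin-1, Ccdc80 a matrix-associated protein, Ptgis prostacyclin synthase and Slpi a secreted protease inhibitor, and Aldh1a2, a retinoic acid synthesising enzyme, is also known from mesothelium. The other 5 encode ribosomal proteins and a mitochondrial subunit. The lowest were Ddx5 (-0.64) and Cd74 (-0.64), the latter the MHC class II invariant chain. With the margin added (260 spots), Lgals1 (0.72) and Slpi (0.64) remained among the 10 highest, joined by Timp1 (0.62) and Col3a1 (0.60).

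In the far lung the 10 highest of 8409 genes were Cfb (0.30), Fn1 (0.26), Slpi (0.25), Ly6e, Msln (0.21), Ifitm3, Serping1, Ccdc80, Serpina3n and mt-Co3 (0.19). Cfb and Serping1 belong to the complement system, Serpina3n is an acute phase protease inhibitor and Msln marks mesothelium. The lowest were the airway genes Scgb1a1 (-0.26) and Scgb3a2 (-0.24), followed by Hp (-0.23), which encodes the acute phase protein haptoglobin. In the control section the highest of 11447 was Prg4 (0.37), which encodes lubricin, followed by Fcna (0.24) and Retnla (0.20). Prg4 also reached 0.52 in the core and 0.31 in the far lung, with only 149 counts in the control section. Slpi, Ccdc80 and mt-Co3 were in the lists of both core and far lung.

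Saa1 and Saa2 were sparse but lay where Saa3 was high. Saa1 had 33 counts in the core (0.133, 0.0915 to 0.187), 7 in the margin, 10 in the intermediate zone and 20 in the far lung (0.0241, 0.0147 to 0.0372). The core exceeded the far lung 5.52-fold (3.07 to 10.1), and the far lung the control section, with its 2 counts, 24.5-fold (5.95 to 216). Saa2 had 10 counts in the core (0.0403), 2 in the margin, 2 in the intermediate zone and 12 in the far lung (0.0145). Core over far lung was 2.79 (1.08 to 7.04). The control section had none, and with 3 counts over the section as the floor the far lung was 9.80-fold and the core 27.3-fold higher. The exact intervals of these ratios began lower, at 6.81 and 18.4.

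Of the 32 spots with Saa1, 30 also held Saa3 (93.8% against 44.2% of all spots), 24 held a mesothelial count (19.0% of all spots) and 15 lay at the tissue edge. Of the 17 spots with Saa2, 14 held Saa3, 9 a mesothelial count and 9 lay at the edge. Both genes were counted together in 4 of the 45 spots that held either. In the far lung Saa1 had 13 counts in the 16 spots with at least 5 mesothelial counts and 0 in the 570 spots with none. That was 194-fold higher against a floor of 3 counts, and the exact interval began at 136. Outside the core, 17 Saa1 counts and 6 Saa2 counts fell in the 21 fibroblast-rich spots, 5 and 2 in alveolar spots, and 0 and 0 in the 81 airway spots, where 3 counts would be 0.0121 per 10000. The 29-spot mass held neither.

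Receptors and binding partners of serum amyloid A changed little in the far lung. Of 15 with at least 10 counts in the compared spots, 1 was at least 2-fold higher than in the control lung (1.95% of all genes), Cd14, the co-receptor of toll-like receptors (0.219 against 0.104 per 10000, 2.11-fold, 1.72 to 2.59), and 1 lower (7.02% of all genes), the scavenger receptor Olr1 (0.426, 0.210 to 0.793). In the core 6 of 15 were at least 2-fold higher than in far lung, beside 24.1% of all genes. These were Marco, a macrophage scavenger receptor (15.5-fold, 12.1 to 20.2), Tlr1 (5.43), Tlr4 (2.99), Cd14 (2.94), Ly96 (2.65) and Tlr2 (2.21). The 2 lower genes (19.3% of all genes), Ager (0.0936) and Cd36 (0.124), are also markers of alveolar type I cells and capillaries. The formyl peptide receptors Fpr1 and Fpr2 passed neither limit, and Fpr2 was 1.77 times its control level in the far lung (1.28 to 2.45).

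Some other acute phase genes were higher with Saa3 in the far lung, and of these Cfb was also at least 2-fold higher in the core. Of 15, 5 were at least 2-fold higher in far than in control lung (1.95% of all genes) and 0 lower: Serpina3m (7.70, 22 against 7 counts), Steap4 (3.97, 3.09 to 5.11), Lrg1 (2.71, 2.52 to 2.91), Cfb (2.40, 2.09 to 2.76) and Fgg (2.45, 0.801 to 7.49, on 8 counts each). The median log2 ratio of the list was 0.70 beside -0.20 for all genes. In the core, of 13, Cfb (4.89), C3 (2.89) and Cp (2.21) were at least 2-fold higher than in the far lung (24.1% of all genes). Hp, Hpx and Orm1 were at least 2-fold lower (19.3% of all genes), with Hp at 0.737 in the core and 13.0 in the far lung. Lcn2, lipocalin 2, was 1.75 times its control level in the far lung and 1.54 times the far lung level in the core. The list's median in the core was 0.15 beside 0.28 for all genes.

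Among inducing cytokines, their receptors and factors, 3 of 21 were at least 2-fold higher in far than in control lung, beside 1.95% of all genes. They were Il1b (5.87, 5.11 to 6.75), Socs3, a feedback inhibitor of STAT3 signalling (2.88, 2.49 to 3.33), and Osm, oncostatin M (2.45, 1.05 to 5.74, on 13 counts each). In the core Il1b was lower than in the far lung (0.427, 0.338 to 0.533), opposite to Saa3. There, 5 of 21 were at least 2-fold higher, Lif (10.7), Tnf (4.56), Nfkb2 (3.24), Osm (2.31) and Zc3h12a (2.30), and 3 lower, Il1b, Cebpd (0.474) and Il6st (0.494). Of these, Osm did not differ beyond counting error (0.873 to 5.85, on 9 counts in the core against 13 in the far lung). The share higher was close to the 24.1% of all genes, and the share lower was below their 19.3%, so the counts are no result about the inducers. Il6 had 1 count in each of control lung, far lung and core, so interleukin-6 transcript was not measurable at this depth. Of 7 genes of HDL handling, 0 passed 2-fold in the far lung, beside 1.95% of all genes higher and 7.02% lower. In the core 0 were at least 2-fold higher (24.1% of all genes) and 1 was lower (19.3% of all genes). This was Pltp, the phospholipid transfer protein (0.373). With 7 genes, these counts are no result about HDL handling. Apoa1, the main HDL apolipoprotein, had 4 counts in the control section and 0 in far lung and core.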

How the data were processed

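Visium sections of 1 control and 1 metastatic lung (4T1 m.f.p.) were analysed. The deposited values were raw molecule counts for each gene in each spot, which the authors obtained with Space Ranger 1.3.1 on mm10 (submitters' processing notes) and did not normalize. Python 3.11.15 with numpy 2.4.6, scipy 1.17.1, pandas 2.3.3 and scikit-learn 1.9.0 was used. All spots over tissue were kept (237 to 83152 counts per control spot, 162 to 77512 per metastatic spot). Zones were rebuilt from the counts and are not the study's PhiSpace niches: k-means with 5 clusters on 20 principal components of 2000 variable genes without Saa1 to Saa4 (log1p counts per 10000, seed 7), then margin within 200 µm and far lung over 500 µm. Intervals of ratios are exact 95% binomial intervals of how the counts split, and a count of 0 was read as up to 3 counts. Log2 ratios used a pseudocount of 0.5 and genes with at least 10 counts. Named genes were the members, genes of the pathway lists with at least 10 counts, and the 10 most like Saa3 in each region; other genes were named after their values were seen. Members, lists and comparisons were chosen with earlier results of these data known. Biopython 1.88 aligned the RefSeq promoter windows and the GENCODE transcripts. Interval and ranking steps were checked on simulated data. The interval check drew Poisson counts, so it did not cover the concentration of Saa3 in few spots. Alternatives covered library size, spot means, classes, depth, distance, core and extreme spots.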

Additional observations from a re-analysis of the deposited data

How the results depend on the processing

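No paired analysis was possible because the groups share only replicate number 1 and no test was made. Each group has 1 section, so no replicate could be left out, and intervals cover counting error only. Of 69 alternative ratios, 42 moved by less than that error, 25 moved further and 2 reversed; of 24 alternative correlations 1 moved (fibroblast list in core and margin, from 0.36 to 0.23 after thinning). Saa3 in far over control lung (19.2) was 29.1 as a mean over spots, 36.0 with spots thinned to 5000 counts, 15.0 with far lung beyond 900 µm and 25.3 without the 1% highest spots. Core over far lung (17.4) was 12.0 with abundant genes left out of the totals, 10.7 as a mean over spots, 13.2 thinned, 22.2 with far lung beyond 900 µm and 23.2 without the 1% highest spots. Fibroblast-rich over alveolar in the metastatic section (12.7) was 28.2 with the top 5% and 10.0 with the top 20% of spots, 15.0 thinned, and reversed to 0.142 with clusters of both sections. Airway over alveolar (0.112) was 0.226 with abundant genes left out, 0.0645 with the top 5% and 0.299 with the top 20%. Alveolar far over control lung (32.6) was 86.8 without the 1% highest spots.

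Leaving out spots with a mesothelial count, spots at the tissue edge, the outer core spots or the control airway spot with most counts was chosen after seeing the data. Without mesothelial spots far over control was 14.6, core over far 10.8, airway over alveolar 0.182, and fibroblast-rich over alveolar reversed to 0.0, on 0 counts in 9 spots. Without edge spots the first 2 were 12.4 and 13.0 and fibroblast-rich over alveolar 2.70. With the core interior alone, core over far was 19.5. Airway far over control lung (1.63), also added after seeing the data, was 4.41 with the top 20% of spots and 5.04 thinned, on 4 against 2 counts. Saa1 in airway over alveolar spots had 0 counts against 5 and gave no value in 4 alternatives, and Saa2, with 0 against 2, gave none. Thinning left out 362 control, 14 core and 50 far lung spots below 5000 counts. At this depth airway and alveolar spots could not be ordered for Saa1 or Saa2.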
